A study of Mus musculus with 10 samples.

Results

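The H2 genes are the mouse major histocompatibility complex (MHC) genes, and 34 protein-coding genes of chromosome 17 with symbols beginning "H2-" were taken from the GENCODE annotation of mm10, out of 21755 protein-coding genes on chromosomes 1 to 19 and X. They comprised 24 class I genes (the classical H2-K1 and H2-D1, and 22 nonclassical genes of the Q, T and M series), 9 class II genes (the classical H2-Ab1, H2-Aa, H2-Eb1 and H2-Eb2, and the nonclassical H2-Oa, H2-Ob, H2-DMa, H2-DMb1 and H2-DMb2) and H2-Ke6, which encodes a steroid dehydrogenase and carries the prefix only for its position. The cells were F123, a mouse embryonic stem cell (mESC) line from a cross of Mus musculus castaneus and S129/SvJae, grown in LIF on irradiated CF1 embryonic fibroblasts and passaged once without feeders before harvest. No other genotype, treatment or time point entered, so genes were compared with genes and not conditions with conditions. H3K4me3 ChIP-seq, which maps the histone mark of promoters, and ATAC-seq, which maps DNA open to the Tn5 transposase, had 2 biological replicates each. The deposited lists pool the replicates of an assay and hold 33487 H3K4me3 peaks and 179109 ATAC-seq peaks, so they carry no spread between replicates and no read depth, and no test was made on them.

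Class I molecules are carried by most nucleated cells and display peptides from inside the cell, after the TAP transporter has brought these into the endoplasmic reticulum, to CD8 T cells. Class II molecules are made mainly by antigen-presenting cells and display peptides taken up from outside to CD4 T cells, and the DM and DO molecules edit the peptides that they hold. Class I is known to be low at the surface of embryonic stem cells, and class II genes are known to need the transactivator CIITA.

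A gene was called marked where an H3K4me3 peak, and open where an ATAC-seq peak, lay within 2 kb of the start of its annotation record. Of the 34 H2 genes, 16 were marked, against 67% of all protein-coding genes, and 24 were open, against 75.2%. The 16 marked genes were all open as well (both peaks at 66.5% of all genes). A further 8 H2 genes were open and not marked, which was 23.5% of them against 8.67% of all genes. The remaining 10 had neither peak, against 24.3% of all genes. For scale, 6.07% of the genome lay within 2 kb of an H3K4me3 peak and 22.9% within 2 kb of an ATAC-seq peak.

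The classes differed in which peaks they had. H2-K1, H2-D1 and all 6 Q genes had both peaks, as did 3 of the 4 T genes, with H2-T24 open only. Of the 12 M genes, H2-M3 and H2-M5 had both peaks and the other 10 had neither. All 9 class II genes were open, and 2 of them, H2-Oa and H2-DMa, were marked at the start of the gene record. The open but unmarked state held 7 of 9 class II genes and 1 of 24 class I genes, while the state with neither peak held 10 of 24 class I genes and 0 of 9 class II genes. For scale, of 120 other protein-coding genes between the outermost H2 starts that are not olfactory receptors, 93 were marked, 104 were open and 15 had neither peak, while 16 of 19 olfactory receptor genes there had neither.

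**Figure D1:**
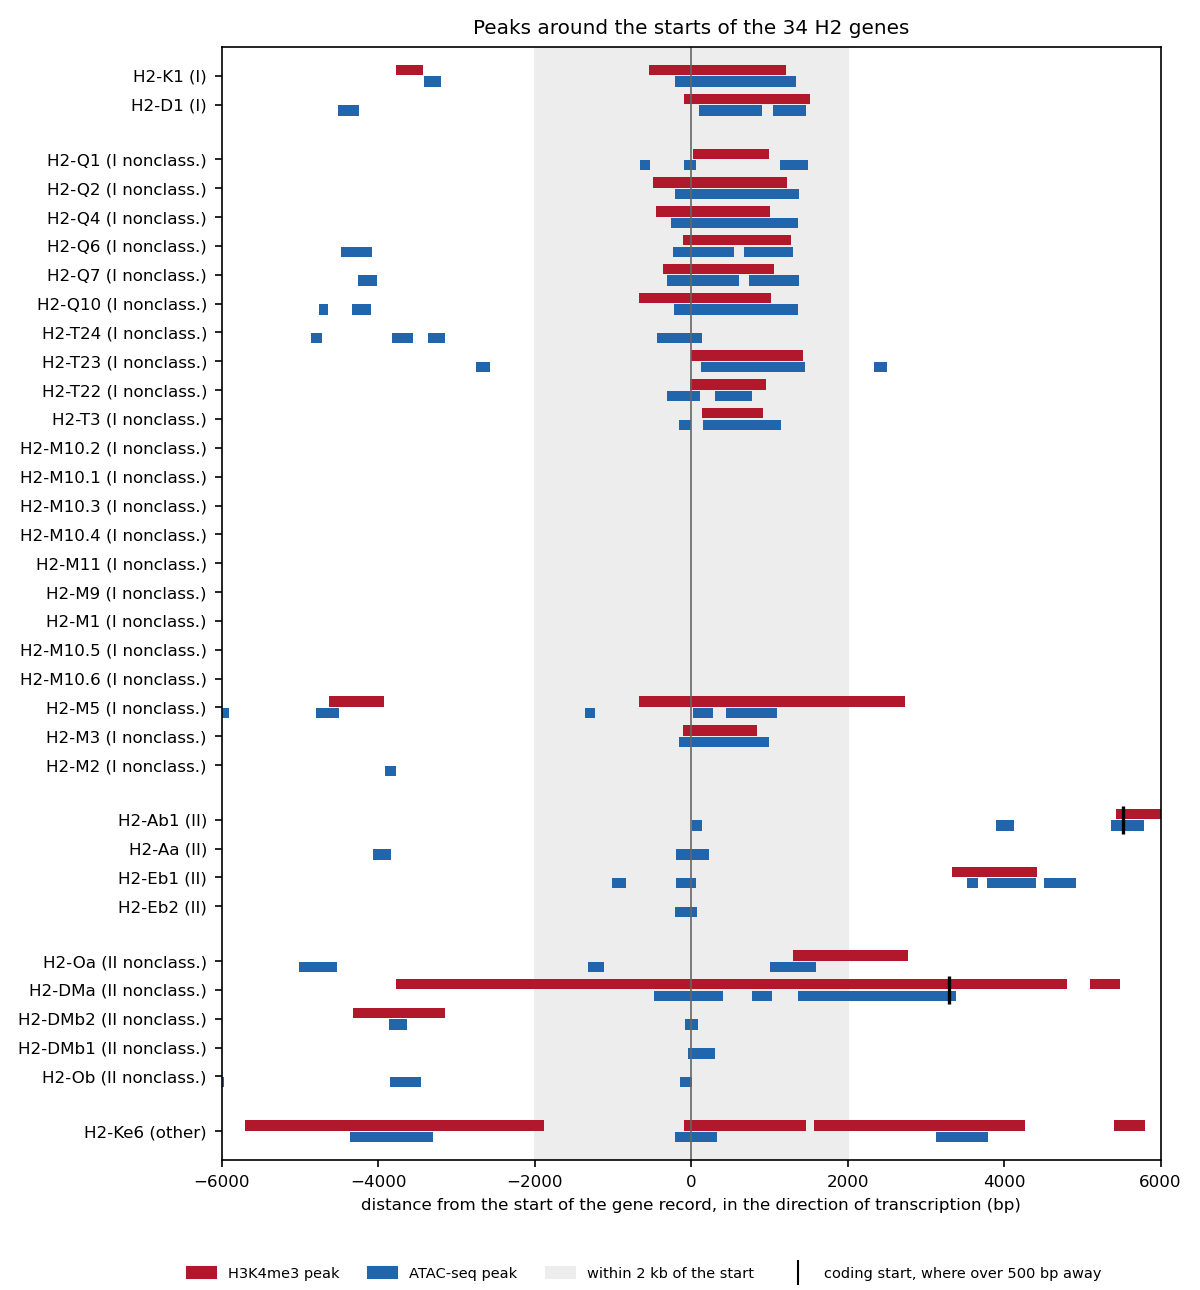
Positions of H3K4me3 peaks (red) and ATAC-seq peaks (blue) around each of the 34 H2 genes, by distance in bp from the start of the gene record, with transcription to the right. Grey marks the 2 kb on each side, a black tick marks the start of the first coding transcript where it lies over 500 bp away, and the class I genes with both peaks, the class II genes with a narrow ATAC-seq peak and the empty rows of 9 neighbouring M genes can be told by eye.

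**Figure D2:**
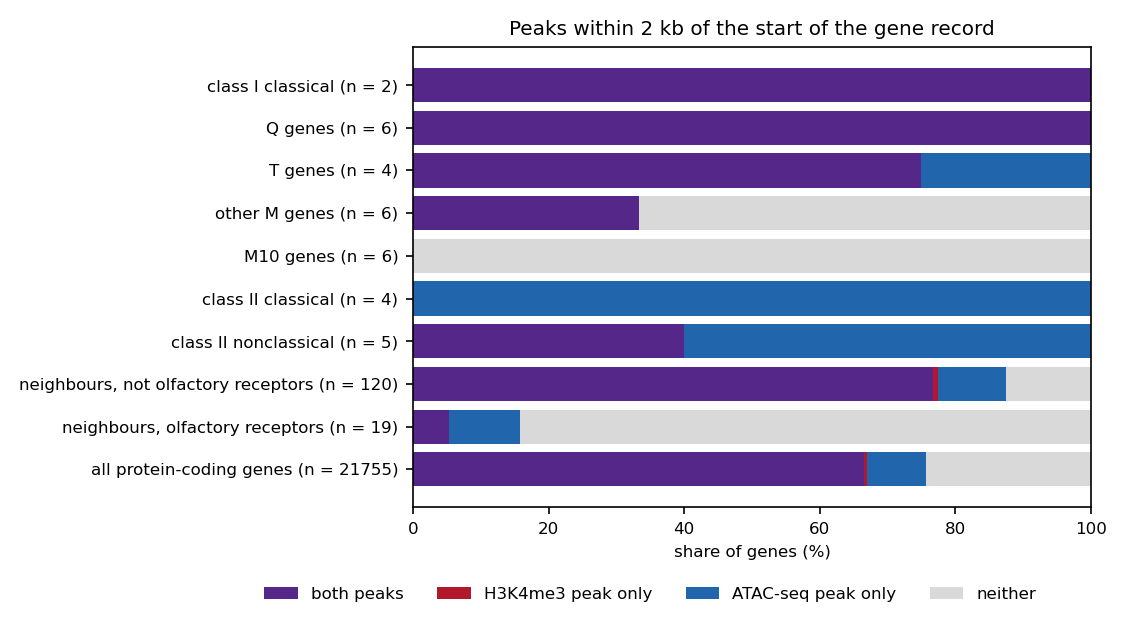
Share of genes (%) with both peaks, an H3K4me3 peak only, an ATAC-seq peak only or neither within 2 kb of the start, for groups of H2 genes, for the other protein-coding genes between the outermost H2 starts and for all protein-coding genes. The 8 classical class I and Q genes had both peaks, the 4 classical class II genes an ATAC-seq peak only, and the 6 M10 genes neither.

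The following promoters show what the reads of each state were mapped to, and each is the 250 bases before the start of the first coding transcript in the RefSeq sequence of GRCm38.p6 (mm10), 5′ to 3′ on the strand of the gene. H2-K1 (minus strand, chr17:34000348-34000597) and H2-Q7 (plus strand, chr17:35438905-35439154) had both peaks, H2-Ab1 (plus strand, chr17:34262959-34263208) had both at this start though not at its record start, H2-Aa (minus strand, chr17:34287824-34288073) and H2-Eb1 (plus strand, chr17:34305617-34305866) were open only, and H2-M10.3 (minus strand, chr17:36368418-36368667) had neither. Capitals mark matches on either strand to CCAAT, the letters bound by the factor NF-Y and read as ATTGG from the other strand, to TATAAA, the letters of the TATA box, and to GGGATTCCC, a palindrome of the NF-kB type. An interferon response element was searched too, only as an exact match to 2 copies of GAAA with 2 bases between them. These 6 windows hold no such match, and forms of the element that differ from it were not searched.
H2-K1: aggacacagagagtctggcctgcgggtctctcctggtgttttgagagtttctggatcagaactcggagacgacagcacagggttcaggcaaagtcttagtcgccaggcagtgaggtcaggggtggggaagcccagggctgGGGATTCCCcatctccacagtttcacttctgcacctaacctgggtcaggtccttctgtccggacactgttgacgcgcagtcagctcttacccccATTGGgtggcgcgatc
H2-Q7: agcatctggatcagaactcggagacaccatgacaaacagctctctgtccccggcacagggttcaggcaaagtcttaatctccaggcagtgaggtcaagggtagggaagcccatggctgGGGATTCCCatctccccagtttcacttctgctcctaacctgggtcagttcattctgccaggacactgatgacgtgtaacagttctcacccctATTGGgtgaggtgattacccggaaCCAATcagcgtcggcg
H2-Ab1: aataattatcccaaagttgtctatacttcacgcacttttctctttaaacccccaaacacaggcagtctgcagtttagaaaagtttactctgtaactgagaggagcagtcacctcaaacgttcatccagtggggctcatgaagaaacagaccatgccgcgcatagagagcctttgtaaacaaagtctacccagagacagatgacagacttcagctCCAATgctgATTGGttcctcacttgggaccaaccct
H2-Aa: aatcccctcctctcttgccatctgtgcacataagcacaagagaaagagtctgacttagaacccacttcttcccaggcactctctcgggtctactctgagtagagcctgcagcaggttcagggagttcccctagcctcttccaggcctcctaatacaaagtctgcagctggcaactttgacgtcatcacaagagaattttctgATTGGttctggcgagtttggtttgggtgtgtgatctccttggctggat
H2-Eb1: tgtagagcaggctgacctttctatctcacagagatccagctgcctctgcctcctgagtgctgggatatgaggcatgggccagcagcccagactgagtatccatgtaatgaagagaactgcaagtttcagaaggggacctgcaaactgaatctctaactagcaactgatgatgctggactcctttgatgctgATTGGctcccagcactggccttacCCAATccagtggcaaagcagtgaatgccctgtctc
H2-M10.3: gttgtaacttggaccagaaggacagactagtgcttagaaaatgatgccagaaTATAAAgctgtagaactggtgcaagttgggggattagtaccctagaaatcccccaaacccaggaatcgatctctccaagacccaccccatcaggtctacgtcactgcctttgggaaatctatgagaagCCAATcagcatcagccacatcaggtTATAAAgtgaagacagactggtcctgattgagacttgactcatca

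CCAAT stood in 24 of the 34 H2 promoters (70.6%, against 35.8% of all protein-coding genes), among them all 4 classical class II genes. Of the 5 nonclassical class II genes 1 had a match (20.0%), H2-Ob. TATAAA stood in 12 (35.3%, against 11.4%), of which 4 were M10 genes and 4 were Q genes. GGGATTCCC stood in 3 (8.82%, against 0.359%), namely H2-K1, H2-Q6 and H2-Q7, all marked and open. The exact letters searched for the interferon response element stood in H2-Q2 and H2-T22 (5.88%, against 3.12%). Promoters with other forms of the interferon element or of the NF-kB type are not counted in these shares. Family members share sequence, so these matches are not independent of each other, and CCAAT stood in promoters of every state.

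The classical class I genes H2-K1 and H2-D1, whose products present peptide on most cells, had peaks of similar size. The H2-K1 H3K4me3 peak (chr17:33999137-34000885) spanned 1749 bp at a fold enrichment of 23.4, the ChIP-seq signal at the summit over its control as the peak caller reports it. The H2-D1 peak (chr17:35262635-35264243) spanned 1609 bp at 26.4. Their summits lay inside the genes, 209 bp from the start of H2-K1 in an intron and 448 bp from the start of H2-D1 in an exon. The ATAC-seq peak of H2-K1 was 1553 bp wide and covered the start, whereas H2-D1 had peaks of 811 and 428 bp that began 96 and 1041 bp downstream of it.

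Among the Q genes, which encode nonclassical class I molecules such as Qa-2, fold enrichment ran from 13.0 at H2-Q1 to 25.1 at H2-Q2, with H2-Q10 at 24.2, H2-Q4 at 23.2, H2-Q7 at 17.7 and H2-Q6 at 16.6. H2-Q2 and H2-Q10 lay between H2-K1 and H2-D1 in fold enrichment. H2-Q2, H2-Q4 and H2-Q10 also had the widest ATAC-seq peaks of class I, 1594, 1629 and 1585 bp respectively, each covering the start. The midpoint of the H2-Q4 peak was nearest to the start of the antisense gene Gm11131, which lies 675 bp from that of H2-Q4. H2-Q1 stood apart with 3 narrow ATAC-seq peaks of 128 to 358 bp, of which only 30 bp overlapped its H3K4me3 peak. H2-Q6 and H2-Q7 looked alike, each with ATAC-seq peaks on either side of a short gap (775 and 622 bp at H2-Q6, 919 and 634 bp at H2-Q7).

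The likeness of H2-Q6 and H2-Q7 has a limit in the sequence itself. Of the 50-base words within 2 kb of the start, 43.6% at H2-Q6 and 44.7% at H2-Q7 occurred once in the genome, and 33.5% and 34.1% of their words were shared with each other. A read that lies wholly within shared sequence cannot be placed in one gene by its own letters, so the peaks of these paralogs are uncertain as single-gene calls. Longer reads or their mates may reach unshared sequence, and how many reads this concerns was not tested. All 6 Q genes had under 90% of words found once, with H2-Q2 highest at 88.8%. The classical H2-K1, to which other genes are compared here, had 84.9%, and H2-D1 had 92.2%. Over all H2 genes the median was 92.5%, and 14 of 34 (41.2%) were under 90%, against 13.7% of all protein-coding genes.

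In the T series, H2-T23, which encodes the Qa-1 molecule that presents leader peptides to NK cell receptors, had the strongest peak, with a fold enrichment of 16.01 and a width of 1430 bp, beginning 1 bp past the start. H2-T22, a ligand of gamma delta T cells, had 10.17, and its peaks also lie near the start of Gm6034, 214 bp away, so they cannot be given to either gene alone. H2-T3, which encodes the thymus leukaemia antigen, had 6.62 over 770 bp, and its peak began 145 bp downstream of the start. H2-T24 had a 583 bp ATAC-seq peak over its start and its nearest H3K4me3 peak 10865 bp away. Words found once were 58.4% at H2-T23, 69.0% at H2-T22, 92.8% at H2-T3 and 94.5% at H2-T24, and the part of repeated sequence in these calls was not tested.

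Of the M series, H2-M3, which presents formylated peptides, had an H3K4me3 peak of 955 bp with a fold enrichment of 21.3, lying wholly within an ATAC-seq peak of 1146 bp. H2-M5 had the widest class I peak, 3403 bp, at a fold enrichment of 17.1, with 3 narrower ATAC-seq peaks of 125 to 655 bp. The 6 M10 genes, H2-M1, H2-M9 and H2-M11, which are known for expression in vomeronasal sensory neurons, had neither peak, and nor did H2-M2. Their nearest H3K4me3 peak lay 10231 bp away at H2-M10.1 and 231151 bp away at H2-M11, the ends of the range, and their nearest ATAC-seq peak 3777 bp away at H2-M2 to 32335 bp away at H2-M9.

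Of these 10 genes, 9 lie next to each other. The 525.7 kb from H2-M10.2 to H2-M10.6 hold no other protein-coding gene, and held 1 H3K4me3 peak and 18 ATAC-seq peaks. That is 0.19 H3K4me3 and 3.42 ATAC-seq peaks per 100 kb, against 1.73 and 8.09 over chromosome 17. The other H2 stretches were denser than the chromosome in both, with 7.68 and 21.82 per 100 kb from H2-K1 to H2-Eb2. The values were 4.34 and 18.33 from H2-D1 to H2-Q10, and 4.71 and 18.85 from H2-T24 to H2-T3. All stretches run between H2 starts, and the M10 stretch between genes without peaks, so that choice sets part of the contrast. Gene density was not taken into account. Words found once at the 9 genes ran from 77.9% at H2-M10.3 to 100% at H2-M11, and its part in the absent peaks was not tested.

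Most marked H2 genes lay in the lower part of the distribution of marked genes, 15 of 16 below its median fold enrichment and 14 below its median width. The median fold enrichment over the 16 genes was 19.5 and the median width 1465 bp, against 30.3 and 2147 bp over 14572 marked protein-coding genes, whose middle 50% ran from 19.7 to 39.9 and from 1562 to 2850 bp. All 13 marked class I genes were under the median fold enrichment and 12 of them, all but H2-M5, under the median width. Their summits all lay inside the gene, 138 to 818 bp downstream of the start. Over all marked genes, 84.9% had the summit downstream of the start, at any distance. In 11 of the 13 (84.6%) more than 50% of the H3K4me3 peak was also ATAC-seq peak, against 38.8% of marked genes, with H2-Q1 and H2-M5 the others at 3.1% and 26.7%. This share is taken over the H3K4me3 width, whose median was 1430 bp over the 13 genes against 2147 bp. It is therefore not separate from the comparison of widths. Repeated sequence also differed, with a median of 88.8% of words found once over the 17 H2 genes that had both peaks at coding starts. The median was 99.0% over all genes, marked or not. These are not the sets compared above, no value is given for marked genes alone, and the part of repeated sequence was not tested.

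**Figure D3:**
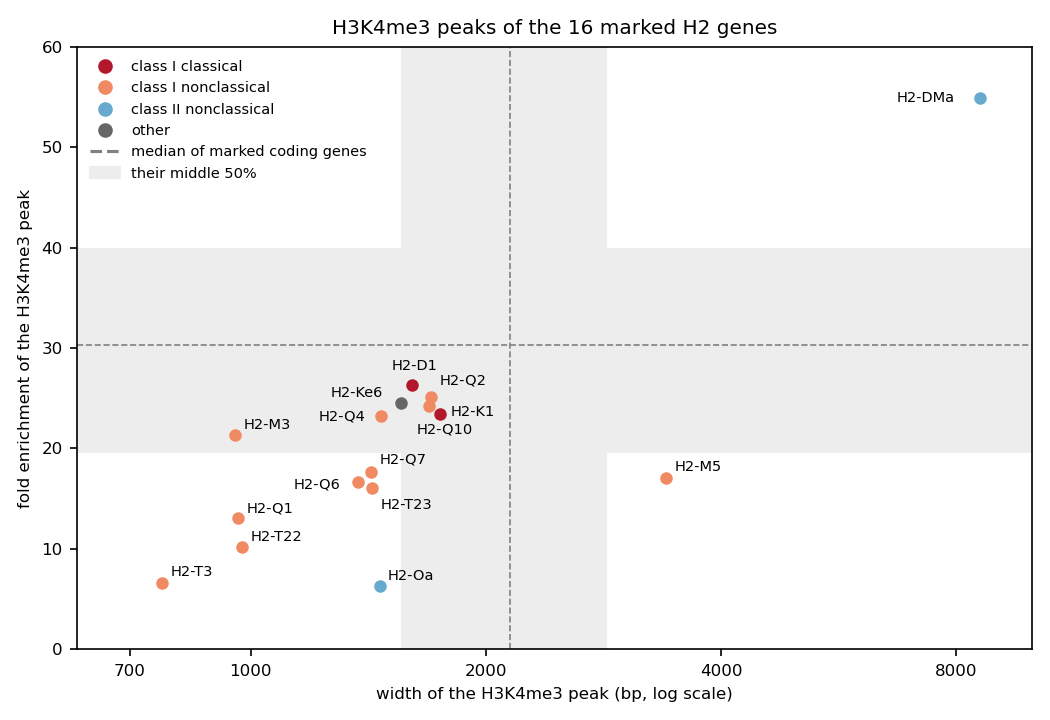
Fold enrichment against width (bp, log scale) of the nearest H3K4me3 peak of the 16 marked H2 genes, coloured by class, with the median (dashed) and the middle 50% (grey) of all 14572 marked protein-coding genes. All class I genes lie below the median fold enrichment of 30.3, and H2-DMa, whose peak also covers Brd2, stands apart at 54.9 and 8578 bp.

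The classical class II genes encode the chains of the I-A and I-E molecules. H2-Aa, the I-A alpha chain gene, had an ATAC-seq peak of 419 bp (chr17:34287596-34288014) over its start, and its nearest H3K4me3 peak 7987 bp away. H2-Eb1, the I-E beta chain gene, had a peak of 255 bp (chr17:34305677-34305931) over its start, with a further 181 bp peak 831 bp upstream. H2-Eb2 had a peak of 275 bp over its start and its nearest H3K4me3 peak 15382 bp away. At these 3 genes the peak began 190 to 206 bp before the start, ended 64 to 227 bp after it and covered every CCAAT match of the promoter (1, 2 and 1 at H2-Aa, H2-Eb1 and H2-Eb2).

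H2-Ab1, the I-A beta chain gene, depends on which start is used. The record of the gene begins with a processed transcript, 5520 bp before the first coding transcript, and at the record start it had only a 128 bp ATAC-seq peak. The coding start lay within a 428 bp ATAC-seq peak and an H3K4me3 peak (chr17:34263117-34265553) of 2437 bp with a fold enrichment of 24.3 (23.4 at H2-K1). That peak has its summit 1481 bp into the gene, in an intron. With coding starts 17 of 34 H2 genes were marked (67.6% of all genes), 24 open (75.5%) and 7 open only (8.43%), and classical class II had 1 marked gene of 4. With any annotated transcript start it had 2, since a peak of 1089 bp and a fold enrichment of 11.3 began 3328 bp into H2-Eb1, where its summit was nearest to the start of the antisense gene Gm20513.

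Of the nonclassical class II genes, H2-DMa, the alpha chain of the DM peptide editor, had the strongest and widest peak of all H2 genes, with a fold enrichment of 54.9 over 8578 bp (chr17:34115769-34124346). The peak also covers the start of Brd2, a bromodomain gene expressed in most cells, which lies 198 bp from the coding start of H2-DMa and reads the other way, so the peak cannot be given to H2-DMa alone. H2-Oa, the alpha chain of DO, had a peak with the lowest fold enrichment of the 16, 6.29, which began 1308 bp downstream of the start and had its summit nearest to the antisense gene BC051537. H2-DMb1, H2-DMb2 and H2-Ob, the DM and DO beta chains, had ATAC-seq peaks of 344, 178 and 158 bp over their starts and no H3K4me3 peak within 2 kb. The nearest lay 3143 bp upstream of H2-DMb2 (fold enrichment 9.31), 12908 bp from H2-DMb1 and 19705 bp from H2-Ob.

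H2-Ke6, the member outside both classes, had an H3K4me3 peak of 1559 bp with a fold enrichment of 24.5 and an ATAC-seq peak of 542 bp over its start, and the further H3K4me3 peaks in its window had their summits nearest to Ring1 and Rxrb.

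The ATAC-seq peaks of the open but unmarked class II genes were narrow. The widest within 2 kb ran from 128 to 419 bp with a median of 255 bp over the 7 genes, against a median of 281 bp over the 1887 protein-coding genes in this state and 920 bp over genes with both peaks. They covered 6 of the 7 starts, missing the record start of H2-Ab1 by 16 bp, against 36.9% of starts in that state. Over all 34 H2 genes 19 starts (55.9%) were covered, against 63% of all genes. The list has positions only and was called at a lenient threshold, so the height of these narrow peaks is unknown. With the widest 50% of ATAC-seq peaks (at least 261 bp) H2-DMb2, H2-Ob, H2-Ab1 and H2-Eb1 were no longer open. At H2-Ab1 the 128 bp peak and this loss belong to the record start, and the 428 bp peak over its coding start is above that limit.

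The states of the H2 genes also went with the CpG content of their starts, which the choice of genes did not use. The CpG ratio, observed over expected CpG dinucleotides within 500 bp of the coding start, ran from 0.607 to 0.711 at the Q genes, was 0.795 at H2-K1 and 0.522 at H2-D1, and had a median of 0.576 over all genes. T genes ran from 0.147 to 0.447, classical class II genes from 0.131 to 0.276 and M10 genes from 0.124 to 0.227. At coding starts, the 17 genes with both peaks had a median of 0.607, the 7 open only 0.165 and the 10 with neither 0.158. The latter groups ran from 0.12 to 0.266 and from 0.062 to 0.227, so they overlapped in part.

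With limits chosen after the values were seen, all 10 H2 genes with a ratio of at least 0.5 had both peaks, as did 98.6% of 12091 protein-coding genes. All 4 genes from 0.3 to 0.5 (H2-M3, H2-M5, H2-T22 and H2-T23) had both, against 66.3%. Of the 20 genes under 0.3, 3 had both peaks (H2-T3, H2-Oa and H2-Ab1), 7 were open only and 10 had neither. Among all 6846 genes under 0.3, 11.8% had both, 19.2% were open only and 67.9% had neither. The marked share of H2 genes was 15.0% under 0.3 (12.9% of all genes) and 100% from 0.3 to 0.5 (67.1%), and the part of CpG content in the calls was not tested. The open only share under 0.3 was 35.0%, and 6 of these 7 genes were class II.

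**Figure D4:**
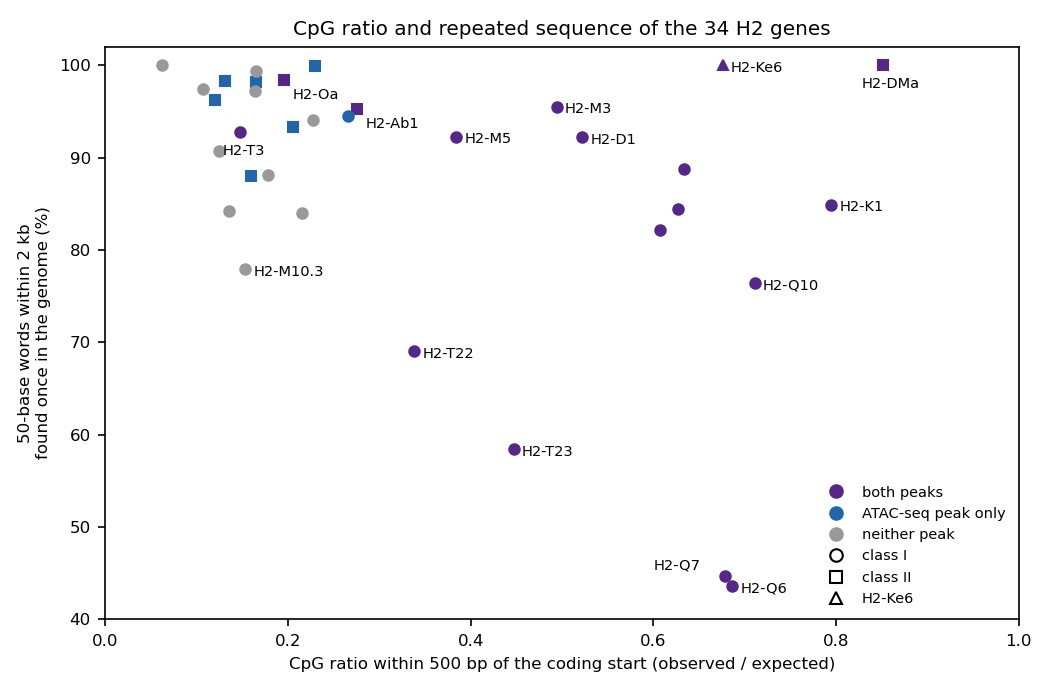
CpG ratio within 500 bp of the coding start against the share (%) of 50-base words within 2 kb found once in the genome, for the 34 H2 genes, coloured by peak state at the coding start and with symbols by class. Every gene with a CpG ratio above 0.3 had both peaks, down to the repeated H2-Q6 and H2-Q7 at 43.6% and 44.7%, and the open only and neither groups share the low CpG range.

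Of 31 other listed genes of the antigen presentation pathway, 27 were marked (87.1%, against 67% of all protein-coding genes) and 28 open (90.3%, against 75.2%). B2m, the light chain that class I molecules need, had a fold enrichment of 23.1, close to H2-K1. Tap1 and Psmb9, a transporter subunit and an immunoproteasome subunit that start 211 bp apart inside the class II region, share a peak of 17.1, with Tap2 at 21.9, Psmb8 at 9.98 and Tapbp, the tapasin gene, at 22.5. Nlrc5, the transactivator of class I genes, was marked at 12.4, and Rfx5, a subunit of the factor that binds class II promoters, at 29.1.

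The 4 unmarked genes of that list, at record starts and at coding starts alike, were Ciita, Ctss, Nfyc and Cd74. Other annotated transcript starts of these genes were not examined, so a peak at such a start would be missed. Ciita, the class II transactivator, had neither peak, its nearest H3K4me3 peak lying 9631 bp and its nearest ATAC-seq peak 6908 bp away. Cd74, the invariant chain that escorts class II molecules, was open and unmarked, the state of 7 class II genes, and Ctss, the protease that trims it, had neither peak. Nfyc, a subunit of NF-Y, also had neither, at its record start and at its coding start. Its nearest H3K4me3 peak lay 5180 bp and its nearest ATAC-seq peak 5415 bp from the record start.

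Other cell types bear on these calls, since class I is expressed in fibroblasts, the feeder cells, and class II in blood cells. Of 8 embryonic stem cell markers 7 were marked and 8 open, Esrrb being open only, against 67% and 75.2% of all genes. The mark is broad among genes, so these counts say little of cell identity. Of 8 fibroblast markers 5 were marked and 7 open, at fold enrichments from 3.39 at Dcn to 20.4 at Col1a2, against 6.62 to 26.4 over the 13 marked class I genes. Of 8 blood cell markers 1 was marked, Cd3e at 4.05, and 3 were open. Peak lists hold no quantity per cell type, and the part of feeder cells in the class I peaks was not tested.

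The reference is of C57BL/6J, which is neither parent strain of F123. RefSeq carries contigs of the region from relatives of S129/SvJae, and the 129X1/SvJ contig held 98.7% to 100% of the 50-base words around the 18 H2 genes from H2-K1 to H2-Q10, class II included. The 129S1/SvImJ contig held 76.9% to 100% at the M10, M1, M9, M11 and M5 genes except H2-M10.5 (50.7%), and 1.3% to 45.6% at the T genes, where a difference of sequence and a part that the contig does not cover cannot be told apart. The empty H2-M9 and H2-M1 had 100% and 97.5%. The S129/SvJae and castaneus sequences were not analysed here, and the part of the strain difference in peaks that were present or absent was not tested.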

How the data were processed

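H3K4me3 ChIP-seq and ATAC-seq of F123 cells were used, 2 biological replicates each, as 1 peak list per assay. Per the labels, the build was mm10. The authors ran the ENCODE histone ChIP-seq pipeline with default parameters, whose aligner and threshold are not given in the sources used here, and deposited for each replicated H3K4me3 peak a score, a fold enrichment, p- and q-values as −log10 and a summit. For ATAC-seq they used Bowtie 1.1.2 and SAMtools, moved read ends by 4 bp for the Tn5 insertion, called peaks with MACS2 2.1.1.20160309 at a p-value of 0.01, and with bedtools 2.27.1 kept those of the pooled reads that both replicates also gave. This deposited list has positions only. All values are as deposited, and read depth is unknown.

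Distances ran from the nearest peak edge to the start of each GENCODE gene record (Python 3.11.15, pandas 2.3.3), and bedtools 2.31.1 gave the same calls for all 21755 genes. The script was tested on simulated peaks. Words of 50 bases were counted on both strands over the whole genome for the H2 genes, and every 40th word for the rest. All members were named, with a list of 31 antigen presentation genes, genes sharing a start or peak with an H2 gene, and markers. Members and lists were chosen with earlier results of these data known. No test was made, since the lists hold no replicates. PLAC-seq and the input libraries were not used.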

Additional observations from a re-analysis of the deposited data

How the results depend on the processing

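The counts of H2 genes were recomputed under 9 other settings and 2 chosen after seeing the data (coding starts, and H2-Ke6 left out). They ran from 7 to 18 for marked, 14 to 25 for open, 7 to 18 for both and 6 to 14 for neither. The count open only (8 genes, 7 of them class II) ran from 4 to 9, and in class II from 3 to 8. These 4 counts and the count open only moved by over 1.5 times under 3 settings. Keeping the 20 genes with at least 90% of words found once left 7 marked, 14 open, 7 with both and 6 with neither. This is by construction a count over fewer genes, and no Q gene was among them. Of the nonclassical class I genes 3 of 10 were then marked, against 11 of 22 before, and of the classical 1 of 1. The 4 classical and 4 nonclassical class II genes kept were all open, with 0 and 2 marked. The part of repeated sequence in the class I calls was not tested. Asking that a peak cover the start left 10 with both, since H2-Oa, H2-D1, H2-Q1, H2-T23, H2-T3 and H2-M5 had an edge beside it. The widest 50% of ATAC-seq peaks left 4 open only, 3 of them class II. Class II genes with neither peak rose in number from 0 to 1 at 1000 bp, 2 with a covering peak and 4 with the widest 50%. The 10 nonclassical class I genes with neither peak stayed so under every setting over all 34 genes except a distance of 5000 bp, which made H2-M2 open, and a covering peak, which added H2-T23. A −log10 q of at least 5 and the summit in place of the edge changed no call. No paired analysis was possible because each list pools its replicates, and for the same reason no replicate could be left out.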

Other observations

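The annotation holds 11 further H2 genes on chromosome 17 that are not protein-coding, and 8 of them were marked and 9 open (72.7% and 81.8%), against 4.69% and 21.2% of all 2261 genes of the same biotypes. H2-Bl and H2-T-ps, class I genes annotated as pseudogenes beside the T genes, had fold enrichments of 29.2 and 25.03, above every protein-coding T gene (6.62 to 16.01), with ATAC-seq peaks of 1656 and 1172 bp. H2-K2, the pseudogene beside H2-K1, had 18.5, while H2-Q3, H2-M6-ps, H2-Pb, H2-Q5 and H2-T10 ran from 3.49 to 6.92. H2-Pa was open and unmarked, and H2-Ea-ps, the I-E alpha chain gene that is not functional in the reference strain, and H2-M10.5-ps1 had neither peak. Pseudogenes can share sequence with their paralogs, so these calls are uncertain as single-gene calls. Repeated sequence was not measured at these 11 genes, and its part in the calls was not tested.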
